A study of Mus musculus with 2 samples.

Results

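The data below follow 8 contractile genes of mural cells, the cells that wrap blood vessels, through the cell classes of 2 single-cell libraries from mouse spinal cord. The genes were Acta2, Tpm2, Tagln, Cnn1 and Lmod1 of the thin filament and Myh11, Myl9 and Mylk of the myosin side, given by name, out of 24071 genes listed in the deposited tables. All 8 were listed in both libraries. They were followed in mural cells, in droplets that held endothelial and mural RNA together, in endothelial cells of different vessel segments and in ependymal cells.

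Both libraries came from C57BL/6j mice of 10 to 12 weeks with the genotype Clec9acre/creR26LSLtdTomato/LSLtdTomato, so in every animal both alleles of Clec9a, which encodes DNGR-1, carried Cre recombinase and both alleles of Rosa26 a tdTomato reporter. The reporter turns on in cells that express or have expressed Clec9a and stays on in their descendants. Live CD45- CD133+ cells were sorted by tdTomato into a CD133+ DNGR-1 traced library (4825 cells, 46530507 UMIs) and a CD133+ non-traced library (25411 cells, 233318692 UMIs), where a UMI is a tag that marks a single captured RNA molecule. There was 1 library per group and the number of animals behind each was not given, so no comparison has a replicate check, no test was run, and every interval below covers counting error only.

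Smooth muscle contracts when a rise in calcium activates myosin light chain kinase (Mylk), which phosphorylates the regulatory light chain (Myl9) of the smooth muscle myosin heavy chain (Myh11) and lets it pull on filaments of smooth muscle actin (Acta2). Tropomyosin (Tpm2), calponin (Cnn1) and transgelin (Tagln) bind along the actin filament, and leiomodin (Lmod1) nucleates it. Smooth muscle cells carry this machinery around arteries and arterioles, whereas pericytes sit on capillaries and are known to make less of it.

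The positions are those of GENCODE vM21 on GRCm38, the assembly that mm10 also names. Acta2 (ENSMUSG00000035783) lies at chr19:34241090-34255590 on the minus strand, Tpm2 at chr4:43514711-43523765 on the minus strand and Tagln at chr9:45929619-45936058 on the minus strand. Cnn1 lies at chr9:22099216-22109630 and Lmod1 at chr1:135324807-135368065, both on the plus strand. Myh11 lies at chr16:14194535-14291372 on the minus strand, Myl9 at chr2:156775420-156781658 and Mylk at chr16:34745210-35002420, both on the plus strand. No gene on the same strand overlapped any of the 8, whereas antisense or other genes on the opposite strand overlapped Tagln, Mylk and Lmod1. Within the last 400 bases of their coding transcripts, 7 of 988 words of 31 bases of Tpm2 were shared with Tpm1, and the other 7 genes shared none with any gene, so that counts at the 3′ end could be told apart from those of their paralogues.

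Promoters are shown for Acta2 and Myl9 because the data below separate these genes, Acta2 being rare and Myl9 common in pericytes. RefSeq (GRCm38.p6) gave a window from 250 bases before to 50 bases after the start site for 6 of the 8 genes, all but Tagln and Myh11. Serum response factor is known to bind the CArG box, a motif that reads alike on both strands. The strict form, with A or T at each of its 6 middle bases, stood in 1.63% of the 32817 promoters of this length and in 1 of the 6, that of Myl9. The form that allows a single C or G in the middle stood in 9.99% of all promoters and in 2 of the 6, Acta2 and Myl9. Capitals mark these matches, which begin 84 and 34 bases before the start site in Acta2 (chr19:34255324-34255623, minus strand) and 161 and 99 bases before it in Myl9 (chr2:156775214-156775513, plus strand). The strict match is the one at 161.
Acta2: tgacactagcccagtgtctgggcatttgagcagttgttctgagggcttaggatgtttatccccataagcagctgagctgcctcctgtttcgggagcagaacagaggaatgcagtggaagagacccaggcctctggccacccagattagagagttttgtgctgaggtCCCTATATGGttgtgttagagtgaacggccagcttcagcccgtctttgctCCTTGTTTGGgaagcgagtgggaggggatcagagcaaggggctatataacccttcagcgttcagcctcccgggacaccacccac
Myl9: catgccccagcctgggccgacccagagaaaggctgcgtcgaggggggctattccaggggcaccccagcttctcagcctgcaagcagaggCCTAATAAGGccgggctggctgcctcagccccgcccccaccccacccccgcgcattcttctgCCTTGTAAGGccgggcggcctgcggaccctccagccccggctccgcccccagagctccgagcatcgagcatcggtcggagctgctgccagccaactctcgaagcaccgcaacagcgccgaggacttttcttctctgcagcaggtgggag
A match describes letters in these windows and is not a bound site.

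Classes were built without the contractile genes among the clustering features and named from markers. In the non-traced library, 280 cells (1.10%, interval 0.977% to 1.24%) were mural-like, 1623 were endothelial-pericyte droplets, 225 were endothelial-smooth muscle droplets, 21033 were endothelial-like and 1154 were ependymal-like. The traced library held 4687 ependymal-like and 48 endothelial-like cells and no mural-like cluster. The 2 libraries shared 42 cell barcodes. Levels are counts summed over the cells of a class and scaled to the same total for every class (CPM), with exact 95% Poisson intervals. Shares of cells with a UMI were taken after each cell was thinned to 1000 UMIs, so that classes of different depth could be compared (median 4625.5 UMIs in mural-like cells, 10837 in endothelial-pericyte droplets, 6943 in endothelial-like cells).

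The mural-like cells held both mural cell types. Clustered again without the contractile genes, they gave 5 sub-clusters. Sub-clusters 0 (82 cells) and 3 (42 cells) were pericyte-like, with all 9 pericyte markers (such as Vtn, Kcnj8, Rgs5 and Pdgfrb) in at least 50% of cells. Sub-cluster 2 (49 cells) had the same 9 together with 7 of 8 endothelial markers and was kept apart as pericyte-like with endothelial markers. Sub-clusters 1 (80 cells) and 4 (27 cells) were smooth muscle-like, with 6 and 4 of 7 smooth muscle markers in at least 50% of cells. They also met 6 and 7 of the 9 pericyte markers, so that sub-cluster 4 met more of the pericyte than of the smooth muscle list, which goes against its name. Its summed pericyte markers were at 22714 CPM beside 3108 CPM of smooth muscle markers, and those of sub-cluster 1 at 5604 and 3476 CPM. In sub-cluster 4 Vtn stood at 7781 CPM, against 762.1 in sub-cluster 1 and 18339 in the pericyte-like cells, and Rgs5 at 10608 CPM. Among the mural-like cells the leading genes by fold were haemoglobin genes in sub-cluster 0 and the stress genes Egr1, Jun, Fosb and Cxcl1 in sub-cluster 3. These names were set after the sub-clusters had been seen. When each library was clustered on its own, 99 of the 107 smooth muscle-like cells fell in the endothelial-smooth muscle droplets and 8 stayed mural-like, so the levels of all mural-like cells together depend on the clustering. In at least 50% of cells, 3 of 8 endothelial markers were found in sub-cluster 0, 4 in sub-cluster 3, 3 in sub-cluster 1 and 2 in sub-cluster 4. The summed endothelial markers were at 1461 CPM in the pericyte-like and 806 CPM in the smooth muscle-like cells.

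**Figure D1:**
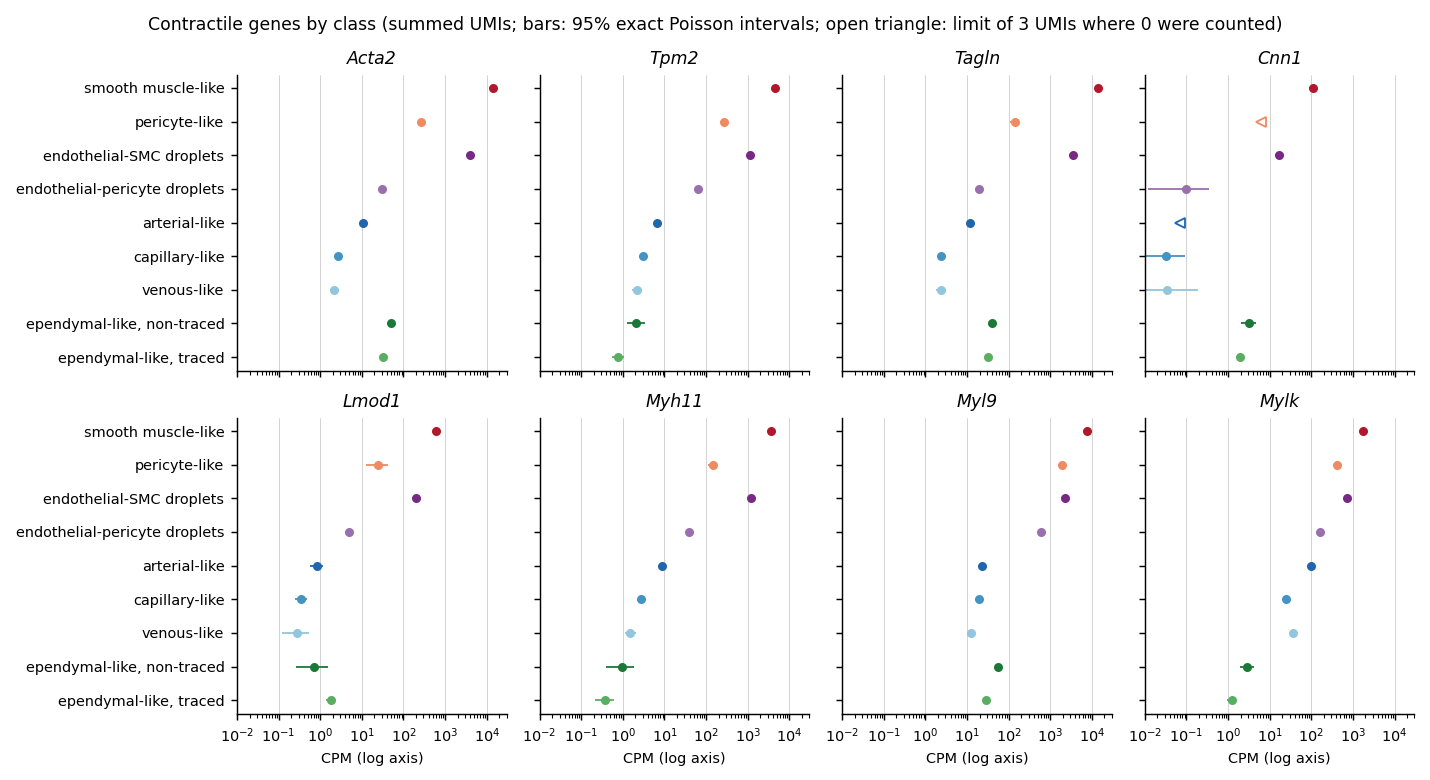
CPM of each of the 8 contractile genes (log axis) in 9 classes, with exact 95% Poisson intervals as bars and an open triangle at the level of 3 UMIs where 0 were counted. Smooth muscle-like cells had the highest level of all 8 genes, and the ependymal-like classes lay above the endothelial segments for Acta2, Tagln, Cnn1 and Myl9 but not for Myh11, Mylk or Tpm2. For Lmod1 only the traced ependymal-like cells lay above all segments.

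Smooth muscle-like cells had the highest levels of all 8 genes among these classes. Acta2, the actin of smooth muscle, reached 13914 CPM (interval 13654 to 14178, 10852 UMIs) in the 107 smooth muscle-like cells, 265 CPM (221 to 315, 128 UMIs) in the 124 pericyte-like cells and 8.43 CPM on 2 UMIs in the 49 pericyte-like cells with endothelial markers. Going down, its order was smooth muscle-like, endothelial-smooth muscle droplets (3921 CPM), pericyte-like, ependymal-like of the non-traced library (50.8 CPM) and of the traced library (32.1 CPM), endothelial-pericyte droplets (30.4 CPM), arterial-like (10.5 CPM), capillary-like (2.63 CPM) and venous-like cells (2.20 CPM). In 2 pairs of neighbours the intervals overlapped, the traced ependymal-like cells with the endothelial-pericyte droplets (30.5 to 33.8 and 28.1 to 32.9) and the capillary-like with the venous-like cells (2.32 to 2.98 and 1.69 to 2.81).

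The level of Acta2 in pericyte-like cells was carried by few cells. Only 17 of 124 pericyte-like cells (13.7%) held an Acta2 UMI before thinning, and 7 cells with 10 or more UMIs held 107 of the 128. Sub-cluster 3 had 478 CPM of Acta2 (386 to 586) and sub-cluster 0 had 121 CPM (84.4 to 169), but most cells of both were at 0. The 3 highest cells of sub-cluster 3 had 5075, 4043 and 3574 CPM of Acta2. Their Vtn stood at 5970, 5470 and 4040 CPM, among the lowest of that sub-cluster, so its level does not describe its cells in general. The median pericyte-like cell was at 0 CPM and the highest at 5075 CPM, whereas smooth muscle-like cells ranged from 300 through a median of 12468 to 30589 CPM. The top of the pericyte-like range thus lay inside the smooth muscle-like range while the medians lay far apart. Tagln followed the same pattern. It stood at 13654 CPM (interval 13396 to 13916) in smooth muscle-like and 139 CPM (107 to 176) in pericyte-like cells, where 12 of 124 cells held a UMI, 10 of them together with Acta2.

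Tpm2 stood at 4458 CPM (4311 to 4609) in smooth muscle-like and 263 CPM (219 to 313) in pericyte-like cells. Lmod1, the actin nucleator, stood at 606 CPM (553 to 664) and 24.8 CPM (12.8 to 43.4 on 12 UMIs). Cnn1 was the least detected gene, with 86 UMIs (110 CPM, 88.2 to 136) in smooth muscle-like cells, all of them in sub-cluster 1, and 0 in pericyte-like cells, where 3 UMIs would be 6.21 CPM. In sub-cluster 4 the count of Cnn1 was also 0, which allows up to 28.1 CPM, below the 128 CPM (102 to 158) of sub-cluster 1.

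On the myosin side, Myl9 and Mylk kept more of their smooth muscle-like level in pericyte-like cells than Myh11 did. Myh11 stood at 143 CPM (111 to 181) in pericyte-like and 3675 CPM (3541 to 3812) in smooth muscle-like cells, or at 3.88% (3.01% to 4.93%) of the latter level. Myl9 kept 25.03% (23.3% to 26.9%), with 1878 CPM (1758 to 2005) against 7503 CPM (7312 to 7698), and Mylk kept 24.2% (20.7% to 28.01%), with 420 against 1739 CPM. The corresponding values were 1.90% for Acta2 (1.59% to 2.27%), 1.02% for Tagln (0.786% to 1.29%), 5.89% for Tpm2 and 4.09% for Lmod1. The intervals of Myl9 and Mylk lay above those of these 5 genes, Myh11 included. Myl9, a gene the study itself took as a pericyte marker, was found in 84.7% of pericyte-like cells and in 100% of smooth muscle-like cells at 1000 UMIs, whereas it was found in 1.71% of capillary-like cells.

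**Figure D2:**
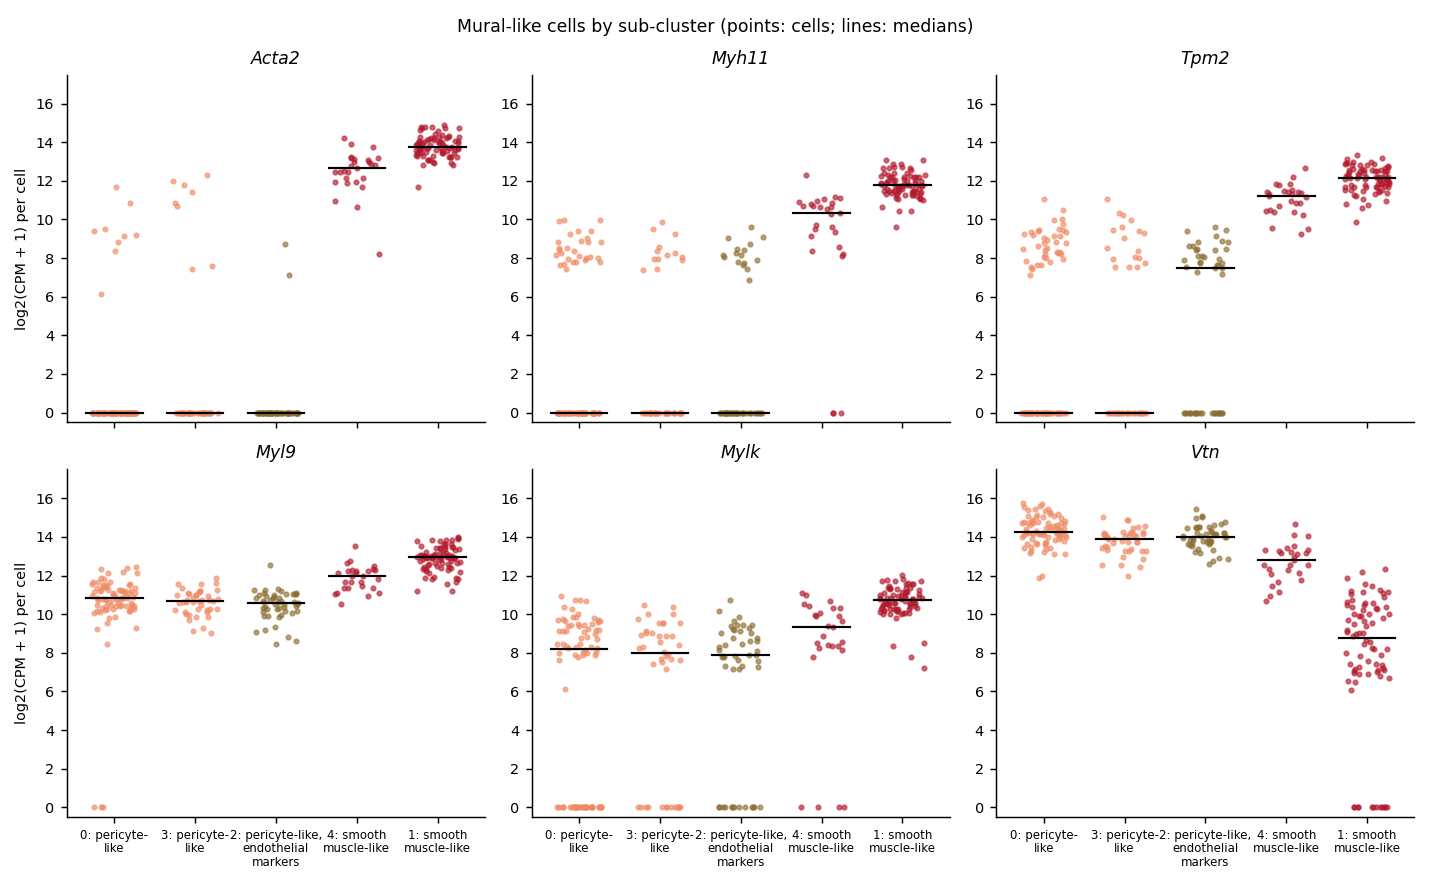
Levels of 5 contractile genes and the pericyte gene Vtn in the 280 mural-like cells, as log2(CPM + 1) per cell on the y axis, by sub-cluster on the x axis, with a line at each median. Acta2 was at 0 in most cells of sub-clusters 0, 3 and 2 and above 0 in every cell of sub-clusters 4 and 1, while Myl9 was present in nearly all cells of all 5.

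The members also came together within cells. At 1000 UMIs, 101 of 107 smooth muscle-like cells (94.4%, exact binomial interval 88.2% to 97.9%) carried UMIs of 4 or more of the 8 genes, with a median of 6. Of the pericyte-like cells, 9 of 124 (7.26%, 3.37% to 13.3%) did, with a median of 1. Between the smooth muscle-like sub-clusters, sub-cluster 4 had lower levels of all 8 genes than sub-cluster 1. Acta2 stood at 7041 CPM (6547 to 7563) there against 15005 CPM (14713 to 15300), Tagln at 4616 against 15088 CPM and Myh11 at 1245 against 4060 CPM. Its cells were shallower, at a median of 3695 UMIs against 7669.

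Against endothelial-like cells, all 8 members were higher in mural-like cells by over 1 on the log2(CPM + 1) scale, where 15.8% of the 9494 genes with at least 10 CPM in either class were higher by as much. The median difference of the 8 was 8.25, beside -0.00361 over all genes. The differences ran from 4.57 for Mylk and 5.83 for Cnn1 to 10.29 for Tagln and 10.32 for Acta2. Without the smooth muscle-like sub-clusters the median was 4.41. Between smooth muscle-like and pericyte-like cells all 8 were higher in the former by over 1, where 12.3% of 9490 genes were, with differences from 1.997 for Myl9 and 2.05 for Mylk to 5.71 for Acta2 and 6.61 for Tagln. Cnn1 is counted among the 8 but has no difference here, since pericyte-like cells held 0 UMIs of it. Fewer mural cells and less RNA per cell cannot be told apart in the summed counts of a class.

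The wider contractile apparatus was described by a list of 50 genes, of which 45 were listed in the tables. Between mural-like and endothelial-like cells 34 of the 43 that reached 10 CPM were higher by over 1 and 1, Mkl2, was lower (15.1% of all genes were lower by as much). Among those with the highest levels in mural-like cells were Myl6 (3900 CPM), the essential light chain of myosin, Cald1 (3329 CPM), caldesmon, Tpm1 (2019 CPM), tropomyosin, Calm2 (1036 CPM), a calcium sensor, and Flna (702 CPM), an actin crosslinker. The largest differences belonged to Pln (8.58), the inhibitor of the sarcoplasmic calcium pump, the guanylate cyclase subunits Gucy1a3 (7.44) and Gucy1b3 (7.10), Pdlim3 (7.12), Ednra (7.02), the endothelin A receptor, and Ppp1r14a (6.53), an inhibitor of myosin phosphatase.

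Some of these genes were far higher in smooth muscle-like cells and others stood at like levels in both mural types, whereas all 8 members were higher in smooth muscle-like cells by over 1. Pln stood at 900 CPM in smooth muscle-like and 4.14 CPM in pericyte-like cells, and Pdlim3 at 312 and 6.21 CPM. Cald1 stood at 3548 and 3163 CPM, Gucy1a3 at 508 and 511 CPM and Ppp1r14a at 703 and 681 CPM, each within a log2 difference of 1. Gucy1b3 (533 and 910 CPM) and Ednra (185 and 259 CPM) were nominally higher in pericyte-like cells without passing 1. In all, 26 of the 44 list genes that reached 10 CPM were higher in smooth muscle-like cells by over 1 and 2, Casq2 and Tbxa2r, were lower, where 13.8% of all genes were lower by as much.

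The non-muscle relatives of the members did not share this pattern. Of 16 listed paralogues 14 reached 10 CPM, and in mural-like against endothelial-like cells 3 were higher by over 1 (Cnn2, Tagln3 and Tmod1) and 3 were lower (Myh10, Myl12b and Tpm3), with a median difference of -0.28. Of all genes, 15.8% were higher and 15.1% lower by as much, so these small counts say little about the paralogues. Actb stood at 7063 CPM in mural-like and 4694 CPM in endothelial-like cells, Actg1 at 965 and 1912 CPM, Tagln2 at 528 and 542 CPM, Tpm4 at 245 and 487 CPM and Myl12a at 449 and 775 CPM. Cnn3, Tmod3 and Myh9 lay within a difference of 1 as well. Between the mural types Tmod1 was the 1 paralogue higher in smooth muscle-like cells by over 1, and Myh9, Tagln3 and Tmod3 were lower. Of all genes, 12.3% were higher and 13.8% lower by as much. Myh9, a non-muscle myosin heavy chain, stood at 186 CPM in smooth muscle-like and 660 CPM in pericyte-like cells, the opposite order to Myh11.

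Over the 1903 mural-like cells and endothelial-pericyte droplets together, the genes most like Acta2 outside the lists were, by Pearson's r of log-normalised values, Atp1b1 (0.83), Hspb2 (0.77), Wtip (0.75), Fxyd1 (0.73), Crip1, Sncg and Rcan2 (0.68 each), Pde3a and Ntn4 (0.65 each) and Cryab (0.63), among 8710 genes. Of the members Tagln gave 0.96, Myh11 0.84, Tpm2 0.83, Myl9 0.58 and Mylk 0.55, while Cnn1 and Lmod1 were found in under 10% of these cells. These cells came from 1 library and differed in depth and class, so r describes this mixture. Several were also found elsewhere, Sncg and Crip1 at 39.8 and 1145 CPM in arterial-like cells, and Fxyd1 and Cryab at 346 and 185 CPM in traced ependymal-like cells, beside 599 and 397 CPM in mural-like cells.

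Endothelial-pericyte droplets held Myl9, Mylk and Myh11 at shares of the pericyte-like level within the range of the pericyte markers. As a percent of their CPM in pericyte-like cells, the 9 pericyte markers stood in these droplets between 24.7% (Vtn) and 44.6% (Rgs5). Myl9 stood at 32.0% (29.9% to 34.3%), Mylk at 37.8% (32.8% to 43.8%), Myh11 at 27.6% (21.5% to 35.8%), Tpm2 at 24.2% (20.2% to 29.3%) and Lmod1 at 19.4% (10.6% to 38.8%). Tpm2 and Lmod1 lay below all 9 markers, with intervals that reached into their range. Acta2 (11.5%, 9.49% to 14.01%) and Tagln (14.1%, 10.9% to 18.5%) lay below all 9 with intervals that did not, but both levels rested on few cells. A setting chosen after seeing the data left out the 7 pericyte-like cells and 20 droplets that held 10 or more UMIs of Acta2 or Tagln. Acta2 then stood at 25.7% (16.4% to 42.3%) and Tagln at 39.2% (21.4% to 79.9%), beside 23.8% to 45.7% for the markers. These cells were left out by the compared counts themselves, with the same cut for classes of different depth. Acta2 fell to 46.9 CPM in the pericyte-like cells and 12.1 CPM in the droplets. The setting therefore cannot place Acta2 or Tagln among the markers. Measured against all mural-like cells instead, Acta2 was at 0.416% and Myl9 at 12.6%, since the smooth muscle-like cells then set the reference. In absolute terms Myl9 reached 601 CPM (591 to 612) and Acta2 30.4 CPM. Endothelial-like cells themselves held Mylk at 44.8 CPM, Myl9 at 19.3 CPM, Myh11 at 4.03 CPM and the summed pericyte markers at 559 CPM. The part of endothelial RNA in the percents of these droplets was not tested. Of the 619 Acta2 UMIs in the 1623 droplets, 362 were in 17 droplets with 10 or more. Only 8 droplets (0.493%, 0.213% to 0.969%) carried 4 or more members at 1000 UMIs.

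Endothelial-smooth muscle droplets were their counterpart. As a percent of smooth muscle-like CPM, 7 of the 8 members stood between 25.7% (Tpm2) and 41.9% (Mylk), with Acta2 at 28.2% (27.5% to 28.9%) and Tagln at 25.9% (25.2% to 26.5%), and Cnn1 stood at 15.5% (11.005% to 21.6%) on 64 UMIs. The 7 smooth muscle markers stood between 24.1% (Susd5) and 43.6% (Grip2). Pericyte markers did not keep this ratio, with Vtn at 72.6% and Kcnj8 at 183% of their smooth muscle-like level, so these droplets also carried pericyte genes. Of the 225 droplets 161 (71.6%, 65.2% to 77.4%) carried 4 or more members. Scrublet, a doublet caller, called 8.69% of the non-traced cells, and no droplet class was removed.

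**Figure D3:**
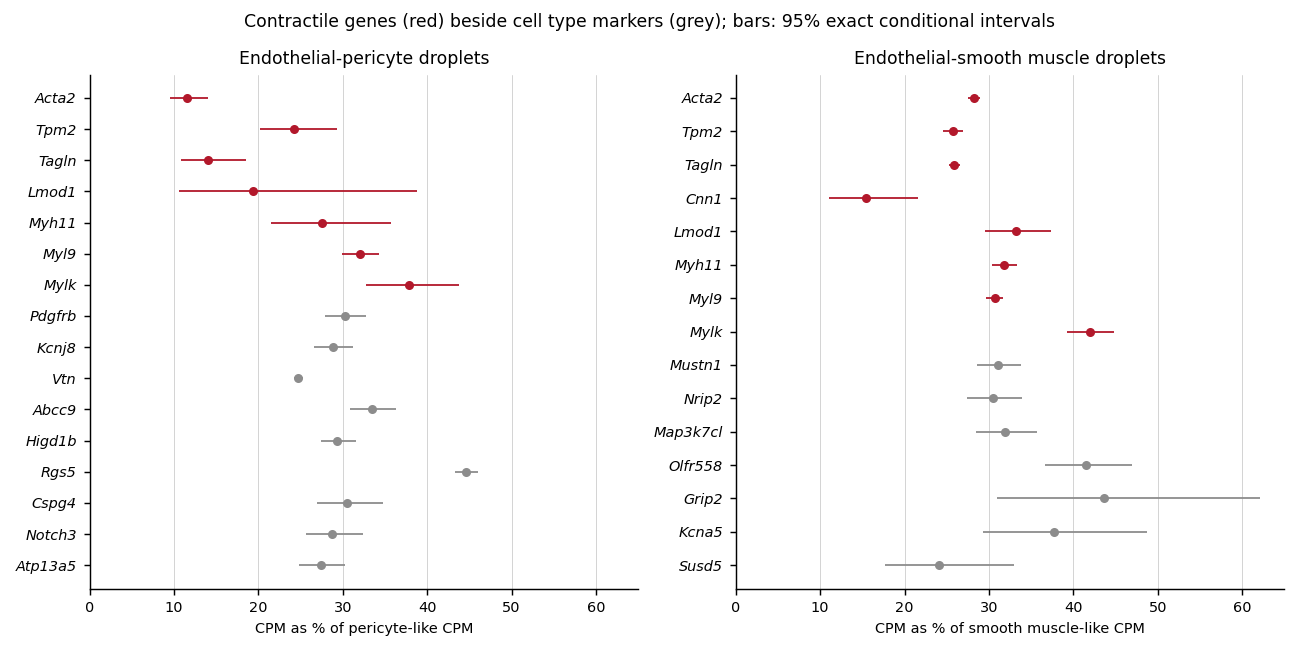
Level of the members (red) and of cell type markers (grey) in the droplets that mix endothelial and mural RNA, as a percent of the CPM in pericyte-like cells (left) or smooth muscle-like cells (right), with exact 95% conditional intervals. On the left Acta2 (11.5%) and Tagln (14.1%) lay below all 9 pericyte markers (24.7% to 44.6%), but both levels rested on few cells. Tpm2 and Lmod1 also lay below all 9, with intervals that reached into their range. Without the few cells of 10 or more UMIs, left out by the compared counts themselves, Acta2 and Tagln stood at 25.7% and 39.2%. On the right 7 members lay between 25.7% and 41.9% and Cnn1 at 15.5%. Cnn1 has no percent on the left, since pericyte-like cells held 0 UMIs of it.

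Among endothelial segments Mylk stood out. Endothelial-like cells clustered again without contractile, pericyte and smooth muscle genes gave 13 sub-clusters, named from lists of segment markers such as Bmx, Gkn3 and Efnb2 for arteries, Mfsd2a for capillaries and Vwf and Ackr1 for veins. Of these, 4 were arterial-like (4360 cells), 5 capillary-like (11708 cells) and 2 venous-like (2469 cells), and 2 were left unnamed. Haemoglobin genes led capillary-like sub-clusters 3 and 5, Cd74 and heat shock genes sub-cluster 7, and Icam1, Vcam1 and Cxcl1 venous-like sub-cluster 4. Mylk was at 100 CPM (97.4 to 103, 4399 UMIs) in arterial-like, 35.9 CPM (33.8 to 38.2) in venous-like and 24.5 CPM (23.5 to 25.5) in capillary-like cells. It was found in 8.78% of arterial-like cells (7.96% to 9.66%) against 2.18% of capillary-like cells (1.92% to 2.46%) at 1000 UMIs, and in 50.4% and 15.2% without thinning. Its 4 arterial-like sub-clusters ran from 71.6 CPM in sub-cluster 8 to 172 CPM in sub-cluster 9, and its 5 capillary-like ones from 15.2 to 31.4 CPM, with no overlap. The venous-like sub-clusters lay between, at 34.7 CPM (sub-cluster 4) and 60.999 CPM (48.8 to 75.3, sub-cluster 11), the latter with an interval that met that of arterial-like sub-cluster 8 (67.6 to 75.8).

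Acta2, Tagln and Myh11 were also highest in arterial-like cells but at far lower levels. Acta2 was at 10.5 CPM (9.60 to 11.5) in arterial-like and 2.63 CPM (2.32 to 2.98) in capillary-like cells, Tagln at 11.7 and 2.30 CPM and Myh11 at 8.49 and 2.66 CPM. Acta2 was found in 1.12% of arterial-like (0.833% to 1.48%), 0.273% of capillary-like and 0.365% of venous-like cells at 1000 UMIs. In arterial-like cells 92 of the 462 Acta2 UMIs lay in 7 cells with 10 or more. Myl9 differed little, with 23.0 CPM (21.6 to 24.4), 18.8 CPM (17.9 to 19.7) and 12.7 CPM (11.4 to 14.1) in arterial-, capillary- and venous-like cells. Tpm2 was at 6.78, 3.04 and 2.20 CPM and Lmod1 at 0.821, 0.349 and 0.275 CPM, the last on 36, 33 and 8 UMIs. Cnn1 was at 0, 3 and 1 UMIs in the same order. The 48 endothelial-like cells of the traced library gave 42 UMIs of Mylk, 21 of Myl9 and 4 of Acta2.

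By the log2 rule, Mylk (1.99), Tagln (1.95) and Acta2 (1.67) were higher by over 1 in arterial-like than in capillary-like cells and Myl9 (0.27) was not, among the 4 members that reached 10 CPM, where 2.92% of 8450 genes were higher by as much. Of the 24 wider list genes that reached 10 CPM, 0 passed in either direction, and 1.16% of all genes were lower by as much. The call for Acta2 and Tagln depended on the clustering. With contractile, pericyte and smooth muscle genes left among the features the differences were 0.54 for Acta2, 0.40 for Tagln and -0.20 for Myh11, whereas Mylk kept 1.78. In that clustering a single capillary-like sub-cluster of 1115 cells held Acta2 at 22.5 CPM and Myl9 at 147 CPM.

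Relative to smooth muscle-like cells, Mylk in arterial-like cells stood at 5.77% (5.43% to 6.14%) and the other detected members between 0.0758% (Acta2) and 0.306% (Myl9). The defining markers of smooth muscle were present at low levels beside them, with a summed level of the 7 markers of 17.55 CPM in arterial-like and 5.89 CPM in capillary-like cells, and the summed pericyte markers were at 554 and 601 CPM. Their part in these levels was not tested. Arterial-like sub-cluster 8 had the highest Myh11 of the 13, at 13.4 CPM (11.7 to 15.3), where it was among the 10 leading genes, together with the highest summed pericyte markers of the named sub-clusters (905 CPM). Sub-cluster 9, with the highest Mylk, had 265 CPM of them.

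**Figure D4:**
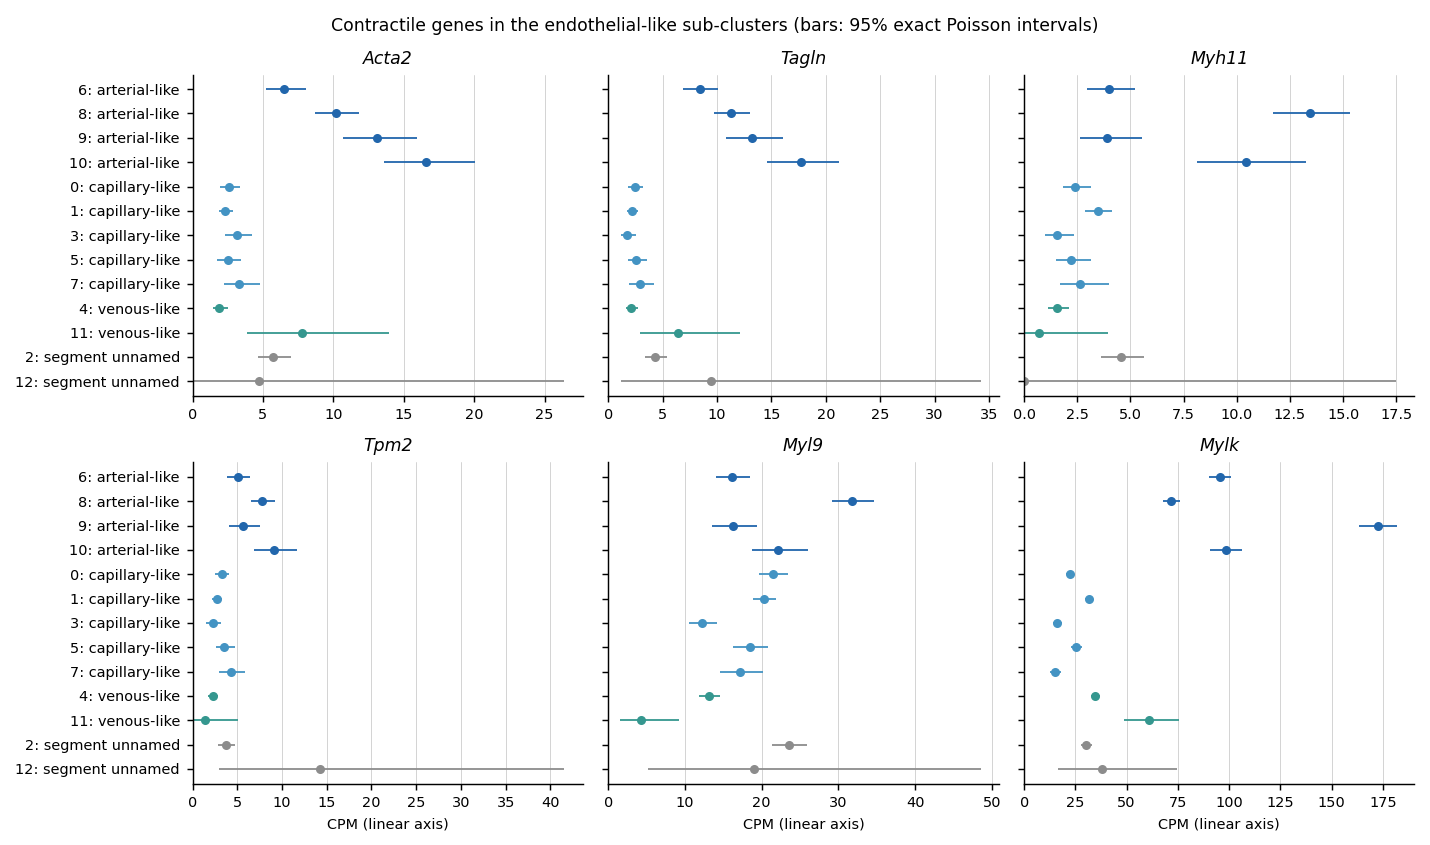
CPM (linear axes) of 6 contractile genes in the 13 endothelial-like sub-clusters of the non-traced library, by segment, with exact 95% Poisson intervals. Mylk separated the 4 arterial-like sub-clusters (71.6 to 172 CPM) from the capillary-like ones (15.2 to 31.4 CPM), with the venous-like ones between, whereas Myl9 did not.

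Ependymal-like cells, which line the fluid-filled canal of the cord and bear cilia, carried some members and not others. Acta2 was at 32.1 CPM (30.5 to 33.8, 1449 UMIs) in the traced and 50.8 CPM (46.2 to 55.8, 437 UMIs) in the non-traced library, Tagln at 31.3 CPM (29.7 to 32.9) and 39.6 CPM (35.5 to 44.0), and Myl9 at 28.4 CPM (26.9 to 30.0) and 54.1 CPM (49.3 to 59.3). Myh11 was at 0.376 CPM on 17 UMIs and 0.931 CPM on 8 UMIs, and Mylk at 1.22 and 2.91 CPM. Tpm2 was at 0.775 and 2.09 CPM, Cnn1 at 1.90 and 3.14 CPM, and Lmod1 at 1.77 and 0.698 CPM.

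Some of the genes did not keep the ratio they had in smooth muscle-like cells. For each UMI of Myh11 the traced ependymal-like cells had 85.2 UMIs of Acta2 (53 to 147) and the smooth muscle-like cells 3.79 (3.63 to 3.95). For each UMI of Tpm2 they had 41.4 and 3.12, whereas for each UMI of Tagln they had 1.03 and 1.02, and for each UMI of Lmod1 18.1 (14.5 to 23.0) and 22.9 (20.9 to 25.2). In the traced ependymal-like cells the summed pericyte markers were at 6.42 CPM with 3 of 9 at 0, most of it Vtn (5.91 CPM). The summed endothelial markers were at 1.88 CPM with 1 of 8 at 0, and the 7 smooth muscle markers at 7.64 CPM with 3 at 0. In the whole traced library 2 of 4825 cells (0.0415%, 0.00502% to 0.150%) carried 4 or more members at 1000 UMIs, and 0 of its 4687 ependymal-like cells did, which allows up to 0.0640%.

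Within the class, a few cells held many of the Acta2 and Tagln UMIs of the cluster with the highest levels. In the traced library both genes were highest in cluster 14 (438 cells, led by Sntn), at 50.4 CPM (44.3 to 57.2) and 54.1 CPM (47.8 to 61.1), and lowest among clusters of over 100 cells in cluster 9 for Acta2 (24.6 CPM, 21.4 to 28.1) and Tagln (20.5 CPM, 17.6 to 23.7). Without cells of 10 or more UMIs of either gene, a setting chosen after seeing the data that left out 9 cells of cluster 14, its levels were 26.8 CPM (22.3 to 31.9) and 31.04 CPM (26.2 to 36.5), beside 24.4 CPM of each in all traced ependymal-like cells. This setting picks cells by the compared counts, so it was bound to lower the higher levels. Cluster 9 was then at 20.4 CPM (17.52 to 23.7) and 18.8 CPM (16.0 to 21.9), so that the intervals of clusters 9 and 14 overlapped for Acta2 and not for Tagln. For Tagln the interval of cluster 14 overlapped those of cluster 7 (24.98 to 30.05) and cluster 8 (21.2 to 26.8). The cycling cluster 18 had 6 and 3 UMIs of them in 38 cells. Per cell, 564 of 4687 traced ependymal-like cells held Acta2, 578 held Tagln and 164 held both, where the product of the shares gives 69.6 cells, and depth is shared by both counts. In 23 of these cells Acta2 reached 10 or more UMIs, with a highest count of 33. At 1000 UMIs Acta2 was found in 2.69% of traced ependymal-like cells (2.24% to 3.19%) and in 3.47% of non-traced ones (2.49% to 4.69%), above the 0.273% of capillary-like cells at the same depth.

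Myl9 followed another division. It was highest in cluster 13, led by Ucma, which both libraries shared, at 77.8 CPM (66.2 to 90.8) in the traced and 77.3 CPM (67.1 to 88.5) in the non-traced cells, and stood between 24.0 and 30.2 CPM in traced clusters 7, 8, 9 and 14. Vtn stood at 121 CPM in the traced and 184 CPM in the non-traced cells of this cluster, and at 0.355 CPM in traced cluster 7, while Rgs5 was at 0 UMIs in its traced cells and at 49.1 CPM in its non-traced cells.

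**Figure D5:**
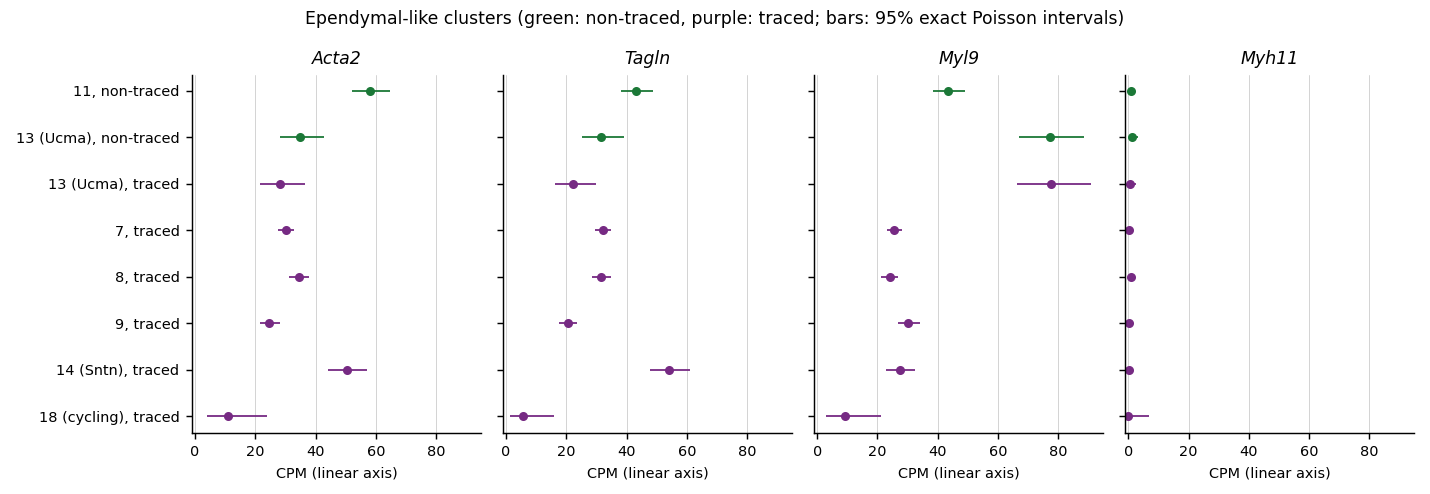
CPM (linear axes) of Acta2, Tagln, Myl9 and Myh11 in the ependymal-like clusters of the non-traced (green) and traced (purple) library, with exact 95% Poisson intervals. Acta2 and Tagln were higher in traced cluster 14 (50.4 and 54.1 CPM) than in clusters 7, 8 and 9. Without 9 cells of cluster 14, picked by their counts of these genes, its levels were 26.8 and 31.04 CPM. Tagln then still lay above its level in cluster 9 treated alike, but its interval overlapped those of clusters 7 and 8. Myl9 was highest in cluster 13 in both libraries, and Myh11 lay near 0 throughout.

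Between the libraries, 3 of the 8 members reached 10 CPM in ependymal-like cells and could be called, and 0 of these 3 differed by over 1. Of all 9579 genes, 0.793% were higher and 1.37% were lower in the traced cells by as much, so a count of 0 says little about the members. The 3 that reached 10 CPM were lower in the traced cells, Myl9 by -0.91, Acta2 by -0.65 and Tagln by -0.33, and the Poisson intervals of the 2 libraries did not overlap for any of them. The class rested on different clusters, with 779 of the 1154 non-traced cells in cluster 11 and most traced cells in clusters 7, 8 and 9. Vascular RNA also differed between the libraries. The non-traced ependymal-like cells had 124 CPM of pericyte and 326 CPM of endothelial markers, and the traced ones 6.42 and 1.88 CPM. Its part in the difference was not tested. With every cell that held a UMI of Vtn, Kcnj8, Cldn5, Flt1 or Ly6c1 left out, 202 non-traced and 4576 traced cells remained and Acta2 was at 73.5 CPM (59.7 to 89.6) and 31.8 CPM (30.2 to 33.6), a difference of -1.18, with Myl9 at -0.98 and Tagln at -0.30. Vtn was also high in cluster 13 of both libraries, so this setting could change the cluster make-up of the class as well as its vascular RNA. These 2 changes were not told apart. Within cluster 13 alone the intervals of all 3 genes overlapped. Of the wider list 1 of 30 genes that reached 10 CPM, Prkg1 (6.05 and 18.5 CPM in the non-traced and traced cells), the cGMP-dependent kinase that relaxes smooth muscle, was higher in the traced cells by over 1. Of the 13 paralogues that reached 10 CPM, 1 was lower by as much, Tagln3 (26.9 and 7.62 CPM, a difference of -1.69).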

How the data were processed

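The authors deposited UMI counts per gene and cell for 2 single-cell libraries (10x Genomics), made with Cell Ranger 3.0.2 and STAR 2.5.1b on mm10 with an added reporter sequence, and integrated with Seurat 3. Per the labels there was 1 library per group, with 25411 and 4825 cells. Here the counts of both libraries were integrated with Seurat 5.3.0 in R 4.3.3 (2000 features without the contractile genes and reporter, 20 components, Louvain resolution 0.8), and mural-like and endothelial-like cells were clustered again. A class needed at least 3 markers, each in 50% of its cells, and a mixed name needed 70% of both lists. The naming thresholds were chosen after seeing the data, when Pcp4l1 and Rgs4 were set aside from the smooth muscle list. Scrublet in scanpy 1.11.5 called 2209 cells (8.69%, with 20.3% expected) in the non-traced and 0 in the traced library. Doublets were kept.

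Counts were summed per class and scaled to CPM, with exact Poisson, binomial (Clopper-Pearson) and conditional binomial intervals at 95%. A count of 0 was limited by 3 counts. Differences were taken on log2(CPM + 1), and a gene with 10 CPM in either class was called higher or lower past 1. This pseudocount understates the differences of low genes. With 1 library per group no test was run and no p-value is given. The error rate of these calls in the real cells was not tested.

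Named genes were the 8 members, the 6 genes of the wider list with the highest CPM in mural-like cells and the 6 with the largest mural-like minus endothelial-like difference, the paralogues with 10 CPM in any class, the 10 genes outside the lists most like Acta2 among those in at least 10% of cells, and markers beside a member or of a class. Mkl2, Casq2, Tbxa2r and Prkg1 were named after their values were seen. A gene that met the rule is not reported here. The members and lists were chosen with earlier results of these data known. Alternatives covered integration, features, resolution, doublets, mitochondrial cells, scaling, pseudocount and thinning.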

Additional observations from a re-analysis of the deposited data

How the results depend on the processing

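No paired analysis was possible because each group was a single library, and no library could be left out for the same reason. Of 43 alternatives, 29 left a value inside its counting interval, 13 moved it outside and 1 reversed it, and 7 of the 43 were chosen after seeing the data. With each library clustered on its own, the median CPM of the members in mural-like cells was 186 in place of 2204, their median log2 difference from endothelial-like cells 4.56 in place of 8.25, their median percent of mural-like CPM in endothelial-pericyte droplets 30.4% in place of 1.74%, and the share of mural-like cells with an Acta2 UMI 7.83% in place of 41.8%. There 99 of 107 smooth muscle-like cells were placed in another class. With the contractile genes among the features the first 3 values were 438 CPM, 6.17 and 12.0%. CPM without mitochondrial genes and Gm42418 gave 2327 CPM, and a pseudocount of 0.1 gave a log2 difference of 8.998. Without smooth muscle-like cells it was 4.41, and with pericyte-like cells as the reference the droplet percent was 24.2%, both chosen after seeing the data. The median arterial-like minus capillary-like difference, 1.16, reversed to -0.12 with contractile, pericyte and smooth muscle genes among the features, and was 0.83 without arterial-like sub-cluster 8 (chosen after seeing the data). The median difference between the libraries in ependymal-like cells, -0.58, was -0.037 without cells that held a vascular marker UMI, also chosen after seeing the data. There 5 members had 0 to 3 UMIs in the 202 non-traced cells left, with Myh11 and Lmod1 at 0, while Acta2 (-1.18) and Myl9 (-0.98) stayed lower in the traced cells and Tagln (-0.30) had overlapping intervals. Vtn, 1 of these vascular markers, was also high in ependymal cluster 13, so the setting could change the cluster make-up too. In addition to the 43, leaving out cells with 10 or more UMIs of Acta2 or Tagln moved the levels of both in endothelial-pericyte droplets and ependymal cluster 14, as given with them and chosen after seeing the data. The cause of the other moves was not tested.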
